A study of Mus musculus with 9 samples.

Results

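The genes described here encode glucose carriers, the enzymes of glycolysis and those of the pentose phosphate pathway. They were taken from a list of 35 gene symbols, and of these 29 had a row of the array that named that symbol and no other. Among these, 27 lay at or above the low-value limit, a log2 value of 5.31 averaged over all arrays, and were tested among 16639 genes of the whole series; Aldoc, an aldolase of brain, lay under it at 4.48 to 4.58, as did Fbp1, the liver fructose-1,6-bisphosphatase, at 3.87 on every array. Gpi1, Pfkfb1, Eno1 and G6pdx had no row named for them and were not analysed here. Pfkfb2 and Tkt appeared only on rows that named several symbols and were not used here.

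RNA was taken from inguinal white adipose tissue, which lies under the skin of the mouse groin, and was measured on 9 arrays of 1 design. The 3 knockout arrays came from mice of the genotype Adiponectin-rtTA; Tre-CRE; Zfp423loxP/loxP kept at room temperature, the 3 cold arrays from mice of the genotype Adiponectin-rtTA; TRE-Cre; Zfp423+/+ that spent their last 14 days at 6 °C, and the 3 control arrays from mice of that same genotype at room temperature. All mice received doxycycline in their chow for 28 days from 8 weeks of age, so the controls also carried both transgenes and the drug. The comparisons ask how far loss of Zfp423, a zinc finger transcription factor of adipocytes, and cold each move these genes. The activator is driven by the adiponectin promoter, which is active in adipocytes, whereas the RNA is that of the whole pad with its vessels, immune cells and any attached muscle. In such tissue fewer cells of a type and less RNA per cell cannot be told apart. Whether each array stands for a mouse of its own is not in the labels, so p-values measure the spread between arrays, which may be technical.

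Glucose enters adipocytes through facilitative carriers, is trapped by hexokinase as glucose 6-phosphate, and is split and oxidised by glycolysis to pyruvate, which lactate dehydrogenase interconverts with lactate. The pentose phosphate pathway draws on the same glucose 6-phosphate and yields NADPH for fatty acid synthesis and ribose for nucleotides. Brown and beige adipocytes, the heat-producing fat cells, are known to take up much glucose in the cold and to make new fat from it while burning fat.

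As checks of the labels, Zfp423 had log2 values of 7.56, 8.15 and 8.04 in knockout arrays, 8.83, 8.72 and 8.40 in cold arrays and 8.74, 8.22 and 8.40 in control arrays. It averaged 7.92 ± 0.31 in knockout arrays and 8.45 ± 0.27 in control arrays (SD, n = 3 each), a difference of -0.53 ± 0.20 (limma SE) with an adjusted p of 0.254, and whether its row covers the deleted part is not in the files. Ucp1, the uncoupling protein of thermogenic adipocytes, averaged 19.31 in knockout arrays, 19.02 in cold arrays and 12.41 in control arrays, with limma adjusted p-values of 0.00855 and 0.00224 against control. The 9 adipocyte markers tested averaged 16.13 to 16.99 over the 9 arrays. In 40.0% of all rows, at least 3 arrays held exactly the same value, which was the row median in 99.6% of these rows. Among measured members 9 of 29 had such repeated values, namely Slc2a1, Slc2a3, Slc2a8, Hk1, Aldoc, Pfkfb4, Fbp1, Gapdh and Eno2. In each of these 9 the repeated value was the row median, so small differences in them may not be measured lack of change. Knockout replicate 3, cold replicate 2 and control replicate 3 held the middle value of their group for 65.8%, 48.1% and 58.6% of tested genes, and without these arrays 0 members passed in each comparison (0, 7 and 1 at an unadjusted p under 0.05 for knockout and cold against control and for cold against knockout, by limma). The sample description of cold replicate 3 differs slightly in its leading number from those of the other arrays, and what this marks is not in the labels. Without that array the members that passed differed by 1.58 (Pkm, limma adjusted p = 0.116) and 1.12 (Fbp2, adjusted p = 0.0791) in cold against control and by 1.83 (Pgd, adjusted p = 0.11) in cold against knockout.

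Promoters are shown for the 7 members whose cold arrays all lay above the control arrays and whose promoter holds ACGTG; in Fbp2, Pgk1 and Pgam1 the knockout arrays did so too. For Aldoa, Pkm and Ldha, which have several annotated starts, the first window that holds it is shown. Windows of these members without a match were chr7:126800448-126800697 (Aldoa), chr9:59656326-59656575 (Pkm) and chr7:46846832-46847081 (Ldha). Each is the 250 bases before the annotated start, on the gene's own strand and 5′ to 3′, from RefSeq assembly GRCm38.p6. Capitals mark ACGTG, the core of the hypoxia response element, on either strand, where it reads CACGT on the opposite one. The E-box CACGTG, the core of the carbohydrate response element, contains ACGTG on both strands. The windows are chr6:82774455-82774704 for Hk2 (minus strand), chr13:62858401-62858650 for Fbp2 (minus strand), chr7:126799255-126799504 for Aldoa (minus strand), chrX:106186850-106187099 for Pgk1 (plus strand), chr19:41911621-41911870 for Pgam1 (plus strand), chr9:59656977-59657226 for Pkm (plus strand) and chr7:46845554-46845803 for Ldha (plus strand).
Hk2: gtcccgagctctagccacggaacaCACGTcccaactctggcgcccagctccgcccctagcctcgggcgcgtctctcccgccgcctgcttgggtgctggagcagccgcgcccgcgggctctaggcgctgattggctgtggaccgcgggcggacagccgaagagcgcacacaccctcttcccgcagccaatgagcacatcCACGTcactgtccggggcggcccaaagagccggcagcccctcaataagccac
Aldoa: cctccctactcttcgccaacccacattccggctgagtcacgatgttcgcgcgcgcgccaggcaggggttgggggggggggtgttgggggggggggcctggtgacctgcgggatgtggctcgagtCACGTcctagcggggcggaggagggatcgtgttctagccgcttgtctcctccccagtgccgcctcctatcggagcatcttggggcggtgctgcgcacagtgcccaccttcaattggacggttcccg
Fbp2: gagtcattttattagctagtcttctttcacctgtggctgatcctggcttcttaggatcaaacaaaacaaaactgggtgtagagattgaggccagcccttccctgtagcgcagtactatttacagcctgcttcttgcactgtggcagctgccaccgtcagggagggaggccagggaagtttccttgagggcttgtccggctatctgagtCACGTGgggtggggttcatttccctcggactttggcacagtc
Pgk1: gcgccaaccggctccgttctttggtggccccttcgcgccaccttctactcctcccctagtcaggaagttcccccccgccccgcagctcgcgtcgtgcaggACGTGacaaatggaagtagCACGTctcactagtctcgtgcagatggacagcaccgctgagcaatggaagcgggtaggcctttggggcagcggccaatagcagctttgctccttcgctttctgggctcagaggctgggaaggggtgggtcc
Pgam1: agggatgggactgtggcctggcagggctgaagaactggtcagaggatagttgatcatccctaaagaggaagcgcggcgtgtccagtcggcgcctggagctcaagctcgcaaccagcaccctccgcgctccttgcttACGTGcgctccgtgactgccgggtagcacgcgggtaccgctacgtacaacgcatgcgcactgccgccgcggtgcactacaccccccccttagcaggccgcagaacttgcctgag
Pkm: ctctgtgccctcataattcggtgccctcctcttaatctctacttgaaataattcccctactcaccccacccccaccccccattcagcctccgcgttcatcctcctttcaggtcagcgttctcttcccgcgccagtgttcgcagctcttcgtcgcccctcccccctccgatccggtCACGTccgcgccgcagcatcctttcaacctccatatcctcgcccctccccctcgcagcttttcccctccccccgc
Ldha: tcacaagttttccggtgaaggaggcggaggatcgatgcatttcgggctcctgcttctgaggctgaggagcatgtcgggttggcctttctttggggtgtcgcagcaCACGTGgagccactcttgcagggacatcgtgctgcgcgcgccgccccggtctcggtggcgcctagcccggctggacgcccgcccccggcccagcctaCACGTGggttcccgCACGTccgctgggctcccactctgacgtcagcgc
Within the 250 bases before a start, ACGTG was present for 12 of the 33 members with a window (36.4%), against 18.5% of 27025 genes with a window. The 27025 genes had 32851 windows, and a gene counted if any of its windows held the motif. Genes with several windows, among them several members, thus had more chances of a match. CACGTG was present there for 5 of the 33 members (15.2%), against 6.9% of genes. With the 50 bases after the start included, ACGTG was present for 16 members (48.5%) and 21.8% of genes, and CACGTG for 5 members (15.2%) and 8.1% of genes. Of the 14 members with a window whose cold arrays all lay above the control arrays, 7 held ACGTG and 2 held CACGTG. These counts were the same with or without the bases after the start. Among all 25 tested members with a window, which include these 14, 11 held ACGTG and 4 held CACGTG before the start. With the bases after it, 13 and 4 did. Both motifs were thus about as frequent in the members higher in cold as in tested members in general. A match describes these letters only, and no window was given for Slc2a3 and Slc2a4.

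In knockout arrays no member passed the test, while the 3 arrays were spread widely and several glycolysis genes lay higher on average. With limma and Benjamini-Hochberg adjustment over all genes, 0 of 27 members passed an adjusted p of 0.05, where 0.367% of all genes did, 0.228% higher and 0.138% lower. At an unadjusted p under 0.05, 6 members were higher (8.94% of genes) and 0 lower (7.31% of genes). All 3 knockout arrays lay above all 3 control arrays for 4 of 27 members (14.8%), against 9.4% of genes, and below them for 0 members, against 7.99% of genes. These 4 were Fbp2, Pgk1, Pgam1 and Ldhb. The mean difference was above 0 for 19 members (70.4%), as for 56.9% of genes, and was 1 log2 unit or more in size for 4 (14.8%), as for 2.45% of genes. The median log2 difference of the members was 0.07 and that of all genes 0.02. Without knockout replicate 1, 9 members passed with limma adjusted p from 0.0134 to 0.0497, all higher, as did 5% of genes in either direction. They were Pgk1 (2.06), Hk2 (1.86), Pgam1 (1.63), Ldhb (1.52), Pfkl (1.16), Slc2a4 (1.15), Pfkp (1.03), Pkm (0.99) and Fbp2 (0.89), each with its log2 difference from control. Leaving out any other single array gave 0 members.

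In cold arrays 2 members rose, Pkm and Fbp2, and none fell. By limma 2 of 27 members (7.41%) passed the test against control, against 1.56% of all genes in either direction, 1.36% higher and 0.204% lower. At an unadjusted p under 0.05, 11 members were higher (40.7%, against 9.36% of genes) and 0 lower (against 11% of genes). Cold arrays all lay above control arrays for 15 of 27 members (55.6%), against 14.7% of genes, and below them for 0, against 18.2% of genes. The mean difference was above 0 for 23 members (85.2%), as for 43.4% of genes, and the median member differed by 0.35 log2 units, against -0.02 over all genes. The difference was 1 log2 unit or more in size for 10 members (37%), as for 3.84% of genes. The count was sensitive to single arrays: it was 0 without control replicate 2, control replicate 3, knockout replicate 3 or any 1 cold array, 1 without control replicate 1, and 10 without knockout replicate 1 or 2. Knockout arrays do not enter the difference between cold and control, which for Pkm stayed 1.62 without any 1 of them. They change this count only through the spread that the groups share. With the cold and control arrays fitted alone, 13 members passed, all higher, as did 8.1% of genes in either direction: Slc2a4, Hk2, Pfkl, Pfkp, Aldoa, Tpi1, Fbp2, Pgk1, Pgam1, Pkm, Ldhb, Pgd and Taldo1.

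Between cold and knockout arrays, 1 member passed by limma, Pgd, which was higher in cold, where 2.42% of all genes passed in either direction, 1.24% higher and 1.17% lower. At an unadjusted p under 0.05, 7 members were higher (25.9%, against 10.1% of genes) and 0 lower (against 16.8% of genes). The mean difference was above 0 for 19 members (70.4%), as for 42.5% of genes, and 1 log2 unit or more in size for 4 (14.8%), as for 4.3% of genes. Cold arrays all lay above knockout arrays for 6 members (22.2%), against 12.3% of genes, namely Hk2, Pfkl, Pkm, Ldha, Pgd and Taldo1, and below them for 0, against 20.2% of genes. The median difference was 0.23 log2 units for members and -0.03 for all genes. Knockout and cold were each set against the same 3 control arrays, so those 2 comparisons share them. The count was 0 without control replicate 3, knockout replicate 3 or any 1 cold array, and 8 without knockout replicate 2. Control arrays enter this comparison only through the shared spread.

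**Figure D1:**
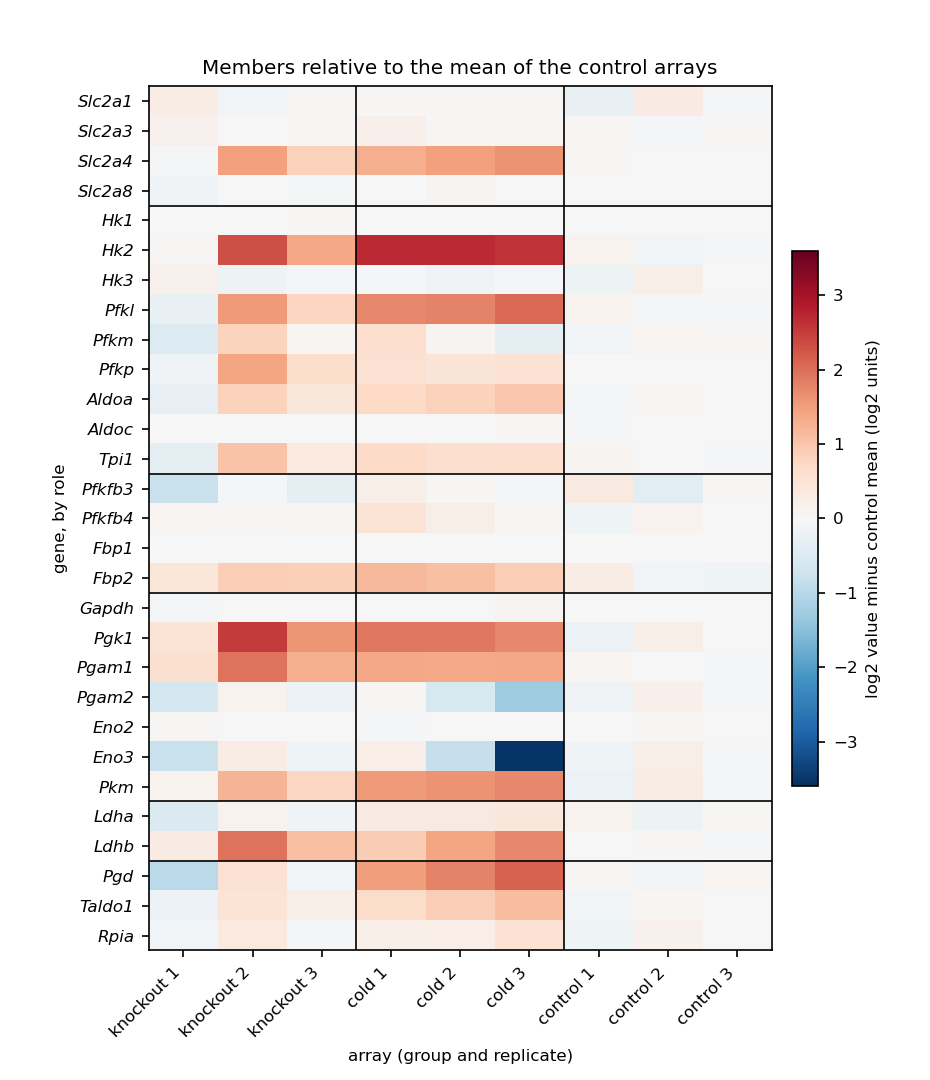
Heat map of the log2 value of each of the 29 measured members (rows, ordered by role) on each array (columns, knockout, cold and control) minus the mean of the 3 control arrays. In cold arrays Hk2 stands furthest above control, by 2.66 on average, knockout replicate 2 is above knockout replicate 1 for most members, and Eno3 is lowest in cold replicate 3.

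Of the carriers, Slc2a4, which encodes the insulin-responsive GLUT4 of fat and muscle, differed most. Its log2 values were 11.00, 12.53 and 11.89 in knockout arrays, 12.36, 12.54 and 12.67 in cold arrays and 11.10, 11.03 and 11.04 in control arrays. All cold arrays lay above the controls, whereas knockout replicate 1 lay just under them. Slc2a4 differed by 0.75 ± 0.34 between knockout and control (limma adjusted p = 0.329) and by 1.47 ± 0.34 between cold and control (adjusted p = 0.0874). The other carriers, Slc2a1 (GLUT1, the widely expressed carrier), Slc2a3 (GLUT3, the carrier of neurons) and Slc2a8 (GLUT8, an intracellular carrier), differed by -0.07 to 0.09 in knockout and cold against control. For Slc2a1 the 95% interval ran from -0.27 to 0.41 in knockout and from -0.31 to 0.37 in cold against control. Slc2a1 held its row median, 8.71, on 4 arrays, among them every cold array, and Slc2a8 held its own, 6.44, on 5. Their small differences thus rest partly on repeated values.

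Hk2, the hexokinase of insulin-sensitive tissues that traps glucose as its 6-phosphate, had the largest mean difference of all tested members in cold against control. Its log2 values were 10.40, 12.69 and 11.75 in knockout arrays, 13.04, 13.06 and 12.97 in cold arrays and 10.50, 10.26 and 10.33 in control arrays. The cold arrays lay above every knockout and control array, and the knockout arrays were spread over 2.30 log2 units. The difference from control was 1.25 ± 0.50 in knockout (limma adjusted p = 0.279) and 2.66 ± 0.50 in cold (adjusted p = 0.0551), a 6.33-fold difference. Cold exceeded knockout by 1.41 ± 0.50 (limma adjusted p = 0.136). These errors rest on the spread that the groups share. The SD of Hk2 was 1.15 in knockout arrays, 0.05 in cold arrays and 0.12 in control arrays. With the cold and control arrays fitted alone, cold exceeded control by 2.66 ± 0.07 (limma adjusted p = 0.00077). Hk2 passed in cold against control under 6 of 20 alternatives, with limma adjusted p from 1.6e-05 to 0.814. Hk1 and Hk3, hexokinases of most tissues and of blood cells, differed from control by -0.09 to 0.01. Hk1 held its row median, 7.07, on 6 arrays.

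Phosphofructokinase, the committed step of glycolysis, has a liver form (Pfkl), a muscle form (Pfkm) and a platelet form (Pfkp). Pfkl had log2 values of 9.74, 11.54 and 10.79 in knockout arrays, 11.73, 11.78 and 12.05 in cold arrays and 10.12, 9.94 and 9.96 in control arrays. Every cold array lay above every knockout and control array, and knockout replicate 1 lay below the controls. Pfkl differed by 0.69 ± 0.40 in knockout (limma adjusted p = 0.442), 1.85 ± 0.40 in cold against control (adjusted p = 0.0761) and 1.16 ± 0.40 in cold against knockout (adjusted p = 0.126). Pfkp and Pfkm differed from control by 0.65 and 0.12 in knockout and by 0.51 and 0.11 in cold. Within arrays, the difference of Pfkl and Pfkm was 0.33, 0.82 and 0.82 in knockout arrays, 1.20, 1.77 and 2.505 in cold arrays and 0.31, -0.03 and 0.00 in control arrays. This difference was higher in cold arrays than in control arrays by 1.73, with an exact two-sided permutation p of 0.1, which is the smallest that 3 arrays against 3 allow, and 0.15 after Benjamini-Hochberg adjustment over the 12 such tests of 4 pairs of members. Among the cold arrays this difference was largest, 2.505, in replicate 3, where 19 skeletal muscle markers averaged 6.36, and smallest, 1.20, in replicate 1, where they averaged 10.29; the part of muscle RNA in it was not tested.

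Downstream in the upper pathway, aldolase (Aldoa) splits fructose 1,6-bisphosphate and triose phosphate isomerase (Tpi1) interconverts its products. Aldoa had a mean log2 value of 11.73 ± 0.57 in knockout arrays, 12.24 ± 0.13 in cold arrays and 11.41 ± 0.06 in control arrays (SD, n = 3 each). Tpi1 averaged 12.90 ± 0.69 in knockout arrays, 13.19 ± 0.05 in cold arrays and 12.55 ± 0.07 in control arrays. Neither passed the test, with limma adjusted p-values of 0.582 and 0.611 for knockout and 0.151 and 0.28 for cold against control, although all cold arrays lay above all control arrays for both.

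Pfkfb3 and Pfkfb4 make fructose 2,6-bisphosphate, which stimulates phosphofructokinase, and Fbp2, the muscle form of fructose-1,6-bisphosphatase, runs the phosphofructokinase step in reverse. Fbp2 rose in cold arrays. Its log2 values were 6.27, 6.72 and 6.70 in knockout arrays, 6.98, 6.91 and 6.70 in cold arrays and 6.09, 5.71 and 5.67 in control arrays, so that no array of either treated group overlapped the controls. Fbp2 was 1.04 ± 0.16 higher in cold (limma adjusted p = 0.034), or 2.05-fold, and differed by 0.74 ± 0.16 in knockout (adjusted p = 0.0938). Fbp2 passed in cold under 10 of 19 alternatives, with limma adjusted p from 2.63e-05 to 0.814. With a mean of 6.42 it was not tested under the stricter filter, which asked for at least 7.39. Its control values lay not far above the low-value limit of 5.31. Pfkfb3 differed by -0.40 ± 0.23 in knockout and 0.06 ± 0.23 in cold against control, and Pfkfb4 by 0.05 ± 0.11 in knockout and 0.25 ± 0.11 in cold.

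In lower glycolysis Pkm rose in cold arrays, and Pgk1 and Pgam1 lay above control on every knockout and cold array. Pgk1, phosphoglycerate kinase, makes the first ATP of the payoff phase and lies on chromosome X. Its log2 values were 13.64, 15.66 and 14.74 in knockout arrays, 15.03, 15.03 and 14.87 in cold arrays and 12.93, 13.36 and 13.14 in control arrays. The knockout arrays were widely spread, replicate 1 lying just above the highest control and replicate 2 above every cold array. Pgk1 differed by 1.54 ± 0.45 in knockout (limma adjusted p = 0.165) and by 1.83 ± 0.45 in cold (adjusted p = 0.0996), and the 95% interval of cold minus knockout ran from -0.76 to 1.35. The row kept is coded for another chromosome than the gene. A second and less bright Pgk1 row, coded for chromosome X, gave differences of 1.41 in knockout and 1.65 in cold. Copies of near-identical sequence cannot be parted on an array, so the Pgk1 rows, and those of Gapdh and Pgam1, are uncertain as to source.

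Pgam1, phosphoglycerate mutase, moves the phosphate of 3-phosphoglycerate. Its log2 values were 12.42, 13.80 and 13.17 in knockout arrays, 13.23, 13.20 and 13.25 in cold arrays and 11.93, 11.83 and 11.79 in control arrays, with no overlap of either group with the controls. The difference from control was 1.28 ± 0.30 in knockout (limma adjusted p = 0.104) and 1.38 ± 0.30 in cold (adjusted p = 0.077), and cold minus knockout had a 95% interval from -0.60 to 0.80. Pkm, pyruvate kinase, makes the pyruvate. Its log2 values were 12.08, 13.17 and 12.69 in knockout arrays, 13.48, 13.56 and 13.66 in cold arrays and 11.72, 12.21 and 11.90 in control arrays. Cold arrays lay above every knockout and control array, and knockout replicate 1 lay under the highest control. Pkm was 1.62 ± 0.26 higher in cold (limma adjusted p = 0.0359), or 3.08-fold, and differed by 0.70 ± 0.26 in knockout (adjusted p = 0.244) and by 0.92 ± 0.26 in cold against knockout (adjusted p = 0.0909). It passed in cold under 10 of 20 alternatives, with adjusted p from 1.17e-05 to 0.814.

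Enolase makes phosphoenolpyruvate, and Eno3 and Pgam2 are its muscle form and the muscle form of the mutase. Eno3 had log2 values of 11.09, 12.17 and 11.77 in knockout arrays, 12.14, 11.09 and 8.39 in cold arrays and 11.74, 12.12 and 11.86 in control arrays. Cold replicate 3 stood far below, and the others overlapped. Eno3 differed by -0.23 ± 0.87 in knockout and -1.37 ± 0.87 in cold against control (limma adjusted p = 0.922 and 0.397), and by -0.29 in cold against control without cold replicate 3. Pgam2 was also lowest in cold replicate 3, at 6.90, and ranged from 7.56 to 8.37 on the other arrays. On the same arrays the mean of the 19 skeletal muscle markers tested, of 20 listed, was 8.62, 10.40 and 9.70 in knockout arrays, 10.29, 9.29 and 6.36 in cold arrays and 9.78, 10.28 and 9.96 in control arrays, lowest in cold replicate 3. Of the 27 members tested, 12 were highest and 9 lowest of the cold arrays in replicate 3, against 30.8% and 34.9% of genes. Over all 9 arrays, 9 members, among them Pkm, Pgd and Slc2a4, were highest there and 2, Eno3 and Pgam2, lowest, against 8.8% and 13.2% of genes. The part of muscle RNA in these values was not tested. Eno2, the enolase of neurons, and Gapdh, whose value lay at 17.63 to 17.77 throughout, differed by -0.02 to 0.04 from control.

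**Figure D2:**
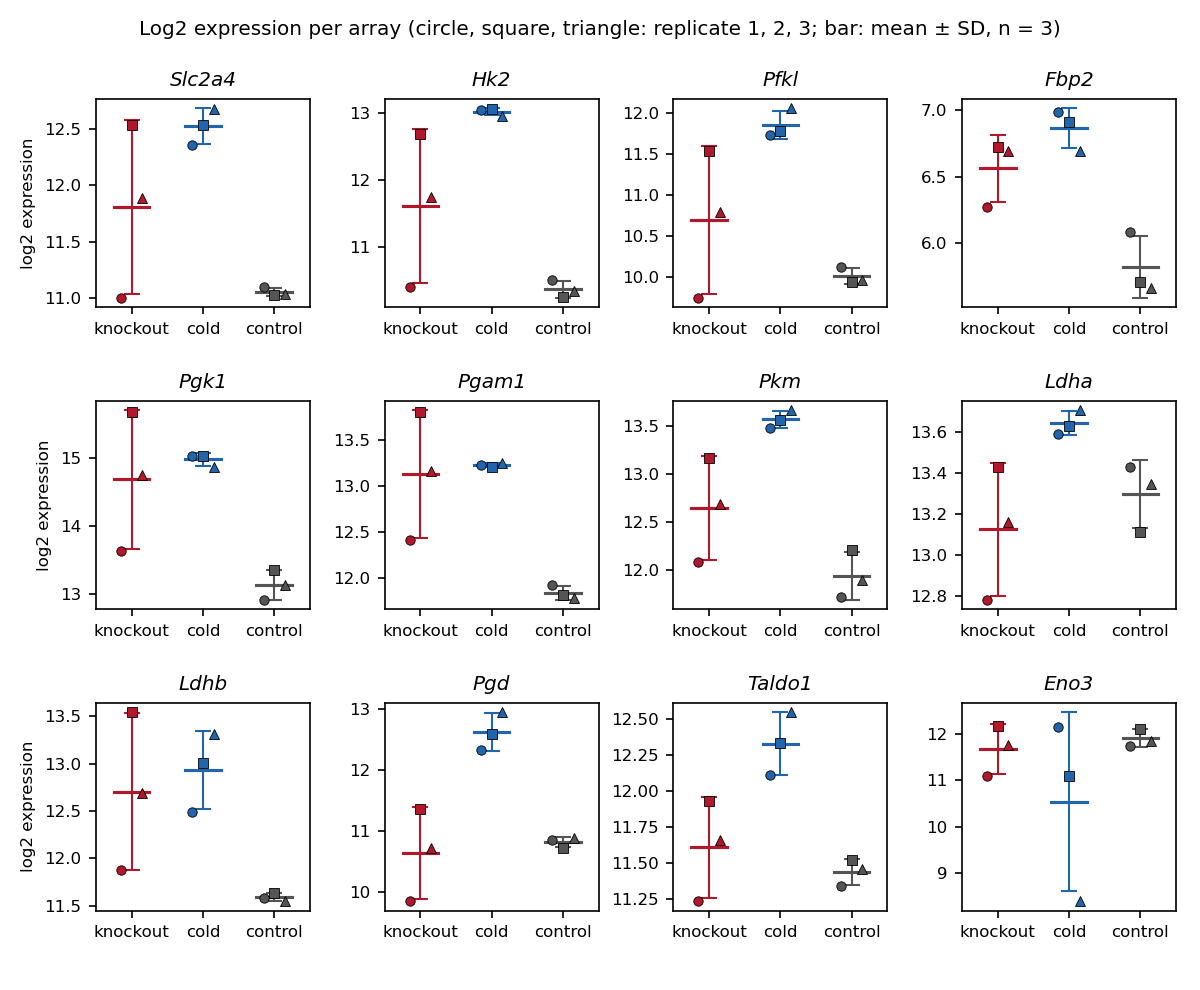
Log2 values (vertical axes, not starting at 0) of the 10 members whose group means differed by 1 or more and of Ldha and Taldo1, by group; points are arrays (circle, square and triangle for replicates 1, 2 and 3) and bars are means ± SD of n = 3. Cold arrays lie above all control arrays in each panel but Eno3, and the knockout arrays of Hk2 run from 10.40 to 12.69.

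Lactate dehydrogenase is made of A (Ldha) and B (Ldhb) subunits. Ldhb had log2 values of 11.88, 13.54 and 12.69 in knockout arrays, 12.49, 13.00 and 13.31 in cold arrays and 11.58, 11.64 and 11.55 in control arrays, with no array of either group overlapping the controls. It differed by 1.11 ± 0.40 in knockout (limma adjusted p = 0.235) and by 1.34 ± 0.40 in cold (adjusted p = 0.144). Ldha differed by -0.17 ± 0.16 in knockout and 0.35 ± 0.16 in cold against control, and cold arrays lay above knockout arrays by 0.52 ± 0.16 (limma adjusted p = 0.106). Within arrays, Ldhb minus Ldha was -0.90, 0.12 and -0.48 in knockout arrays, -1.10, -0.63 and -0.40 in cold arrays and -1.85, -1.47 and -1.80 in control arrays. Every knockout and cold array exceeded every control array in this difference of 2 rows, by 1.29 on average in knockout and 1.00 in cold. The exact two-sided permutation p was 0.1 for each, which 3 arrays against 3 cannot go below (0.15 adjusted over the 12 tests), and 0.5 between cold and knockout.

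In the pentose phosphate pathway Pgd was the member that differed between cold and knockout. Pgd encodes 6-phosphogluconate dehydrogenase, its second NADPH-making enzyme. Its log2 values were 9.84, 11.35 and 10.72 in knockout arrays, 12.33, 12.59 and 12.95 in cold arrays and 10.85, 10.72 and 10.88 in control arrays. Cold arrays lay above every other array, and the knockout arrays were on both sides of the controls. Pgd was 1.99 ± 0.36 higher in cold than in knockout (limma adjusted p = 0.0405), or 3.97-fold, and differed by 1.81 ± 0.36 in cold against control (adjusted p = 0.0617) and by -0.18 ± 0.36 in knockout against control (adjusted p = 0.84). It passed against knockout under 11 of 20 alternatives, with adjusted p from 1.8e-05 to 0.667. Taldo1, transaldolase, differed by 0.17 ± 0.18 in knockout, by 0.89 ± 0.18 in cold against control (limma adjusted p = 0.0693) and by 0.72 ± 0.18 in cold against knockout (adjusted p = 0.0759). Rpia, ribose 5-phosphate isomerase, differed by 0.07 ± 0.15 in knockout and 0.33 ± 0.15 in cold against control.

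**Figure D3:**
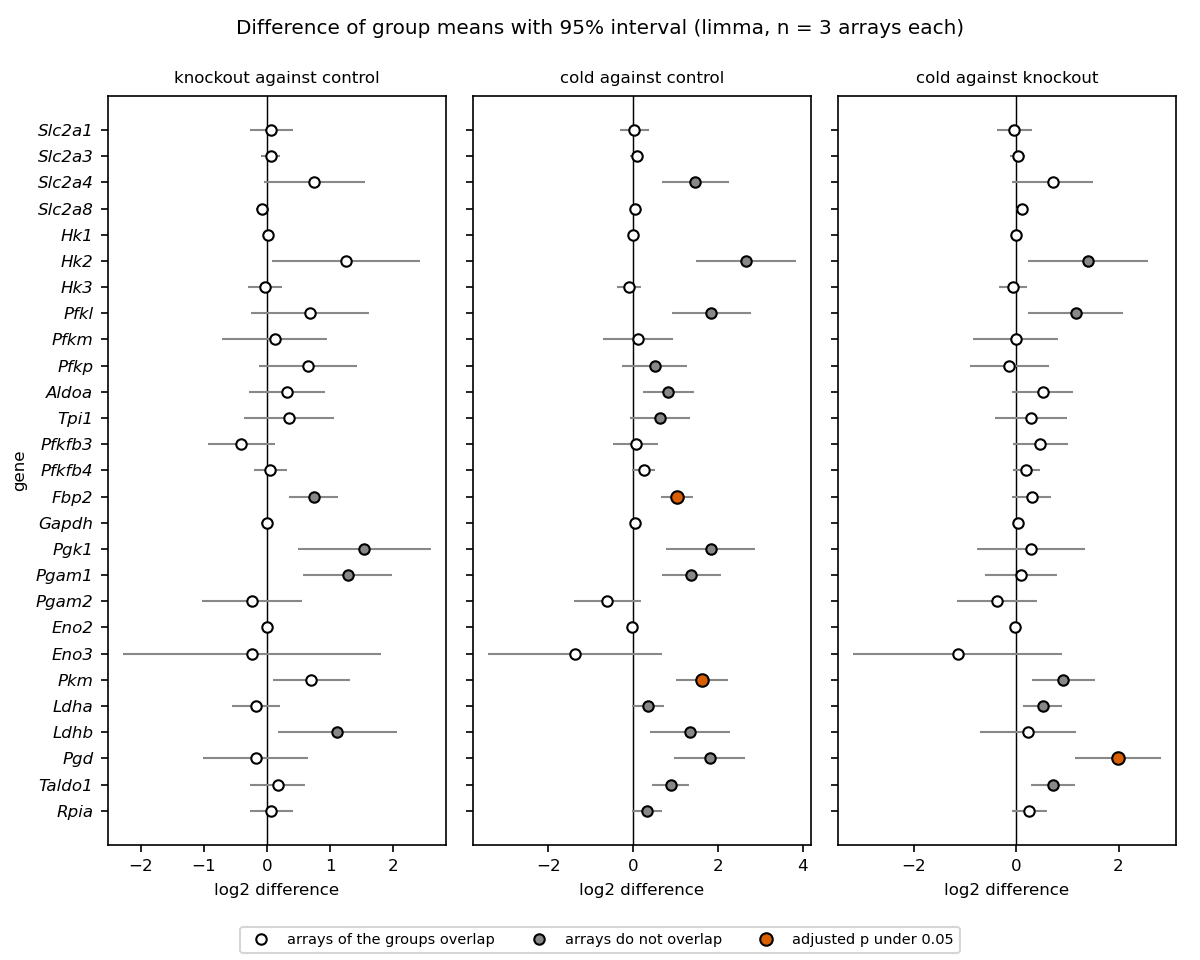
Difference of group means in log2 units (horizontal axes, scaled separately) for each tested member, with 95% intervals from limma and n = 3 arrays per group, for knockout and for cold against control and for cold against knockout. Filled grey points are members whose arrays do not overlap, and orange points (Fbp2 and Pkm in cold against control, Pgd in cold against knockout) have an adjusted p under 0.05.

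The knockout arrays differed from each other in the same order for most members. Replicate 2 exceeded replicate 3, which exceeded replicate 1, for 20 of 27 members (74.1%), as for 30.9% of tested genes. Knockout replicate 1 lay below the lowest control array for 14 members (51.9%, against 26.2% of genes), and knockout replicate 2 above the highest control array for 17 (63.0%, against 29.2% of genes). The median member lay -0.05, 0.49 and 0.06 from its control mean in knockout arrays and 0.54, 0.33 and 0.52 from it in cold arrays. The spread of knockout arrays was wider than that of cold arrays for 23 members (85.2%, against 67.5% of genes). The thermogenic adipocyte list, of which all 10 genes were tested and 7 passed in each of knockout and cold against control, averaged 11.99, 14.52 and 13.63 in knockout arrays, 13.23, 13.00 and 12.76 in cold arrays and 8.91, 9.59 and 9.24 in control arrays. The 9 adipocyte markers averaged 16.13, 16.79 and 16.55 in knockout arrays, 16.98, 16.94 and 16.85 in cold arrays and 16.99, 16.59 and 16.85 in control arrays. The 12 macrophage markers ran the other way among the knockout arrays, at 10.28, 8.81 and 9.68, against 8.73, 8.80 and 8.84 in cold arrays and 9.40, 10.17 and 9.76 in control arrays. The 8 T cell markers tested, of 10 listed, averaged 11.17, 9.45 and 10.52 in knockout arrays, 8.80, 8.69 and 8.62 in cold arrays and 9.34, 10.06 and 9.67 in control arrays. No adipocyte, macrophage, T cell or muscle marker passed the test. Values have no zero on this scale, and the part of cell composition in the members' differences was not tested.

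**Figure D4:**
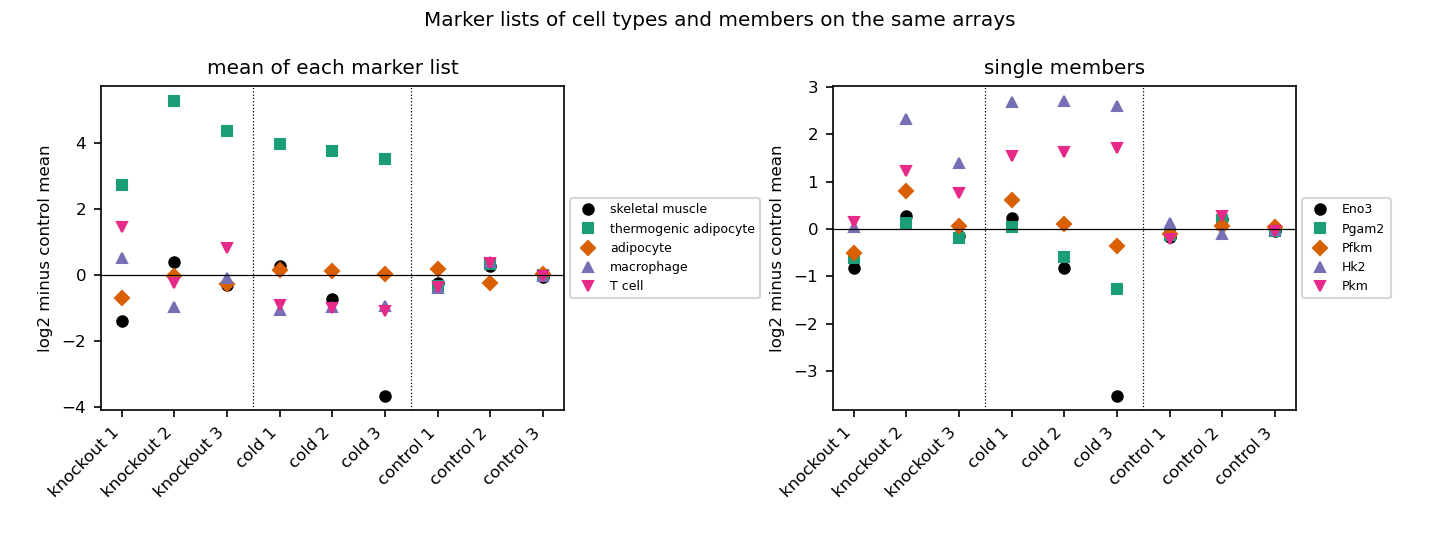
Left, mean log2 value of 5 marker lists on each array minus the mean over control arrays; right, the same for 5 single members. Arrays run knockout, cold and control along the horizontal axis, and both vertical axes are log2 units on different scales. In cold replicate 3 the muscle list, Eno3 and Pgam2 are lowest of all arrays and Pfkm lowest of the cold arrays, while Hk2 and Pkm stay above control, and in knockout replicate 1 the macrophage and T cell lists are higher than in replicates 2 and 3.

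Markers of further cell types were averaged in the same way. The 4 neutrophil markers tested, of 9 listed, averaged 5.48 to 8.20 in knockout arrays, 5.37 to 5.69 in cold arrays and 5.47 to 6.35 in control arrays. The 7 B cell markers of 8 averaged 8.93 to 10.33 in knockout arrays, 8.11 to 9.15 in cold arrays and 9.06 to 10.58 in control arrays. The 9 endothelial markers averaged 9.95 to 10.73 in knockout arrays, 10.66 to 10.92 in cold arrays and 10.37 to 10.79 in control arrays. No marker of these 3 lists passed the test, and neutrophil markers, like the macrophage and T cell lists, were highest in knockout replicate 1. The 8 fibroblast and progenitor markers of 9 averaged 11.81 to 12.30 in knockout arrays, 11.81 to 12.17 in cold arrays and 12.39 to 13.13 in control arrays, and none passed. The 5 nerve and Schwann cell markers of 8 averaged 8.31 to 8.57 in knockout arrays, 8.68 to 8.86 in cold arrays and 8.23 to 8.34 in control arrays. Of these S100b, a calcium-binding protein, rose by 2.65 ± 0.32 in cold against control (limma adjusted p = 0.0149) and Mbp, a myelin protein, fell by 0.41 ± 0.07 (adjusted p = 0.0391). The 1 erythroid marker tested of 9 lay at 7.78 to 7.84 in knockout arrays, 7.78 to 8.13 in cold arrays and 7.31 to 7.78 in control arrays, and 0 of 8 mammary and other epithelial markers were tested.

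Other genes of glucose handling were counted from lists of 74 genes, of which 55 were tested. Against control, 2 rose in knockout and 9 in cold, and 4 rose in cold against knockout, with none falling, against 0.367%, 1.56% and 2.42% of all genes in either direction. Of 20 other enzymes and carriers of glucose and pentose phosphate, 0, 2 and 3 rose in these comparisons. Slc2a5, the fructose carrier GLUT5, was 1.85 ± 0.26 higher in cold than in control (limma adjusted p = 0.0257) and 2.42 ± 0.26 higher in cold than in knockout (adjusted p = 0.0116). Shpk, sedoheptulokinase of the pentose phosphate branch, was 0.52 ± 0.08 higher in cold than in control (adjusted p = 0.027) and 0.53 ± 0.08 higher in cold than in knockout (adjusted p = 0.0232). Ldhd, the D-lactate dehydrogenase, was 0.53 ± 0.10 higher in cold than in knockout (limma adjusted p = 0.0427). Of the 5 polyol, hexosamine and glycerol branch genes tested, 2 rose in cold against control: Gpd2 by 2.70 ± 0.40 (limma adjusted p = 0.0288) and Gpd1 by 1.88 ± 0.22 (adjusted p = 0.0138), the glycerol 3-phosphate dehydrogenases of mitochondrion and cytosol. Of 16 pyruvate and lactate genes, 2, 5 and 1 rose. In knockout these were Pdk4, a kinase that switches pyruvate dehydrogenase off, by 3.23 ± 0.41 (limma adjusted p = 0.0372) and Pdp2, a phosphatase that switches it on, by 0.77 ± 0.09 (adjusted p = 0.0347). In cold against control they were Pdhb (2.21 ± 0.34), Dlat (2.01 ± 0.31) and Pdha1 (1.72 ± 0.25), subunits of pyruvate dehydrogenase, with Mpc1 and Pdp2. The 1 in cold against knockout was Me1, malic enzyme, by 2.34 ± 0.42 (limma adjusted p = 0.0417). Where no gene of a list passed, the smallest p in knockout against control belonged to Pgls (0.20 ± 0.07), Gpd1 (0.87 ± 0.22) and Mlx (0.47 ± 0.17), and in cold against knockout to Gpd1 (1.01 ± 0.22) and Mlxipl (1.40 ± 0.40). Of 14 glucose-regulated and insulin signal genes none passed in any comparison, Mlxipl, the carbohydrate response element binding protein, having the smallest p in cold against control, with a difference of 1.68 ± 0.40 (limma adjusted p = 0.0926).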

How the data were processed

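Each sample, total RNA from the inguinal fat pad, was run on 1 Affymetrix Mouse Transcriptome Array 1.0. The log2 values deposited by the authors for 72688 rows were used as they are. Affymetrix Expression Console made them, per the submitters' processing notes. Software version, summarisation, normalization and build were not given in the sources used here. Rows were named through the platform annotation of the array, with 819 symbols updated through Entrez IDs. Rows with 1 symbol and a mean of at least 5.31, the median of row means, were kept, the brightest where a gene had more than 1, leaving 16639 genes. No counts or detection calls came with these values, and the small number of arrays limits precision.

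The 3 groups follow the labels. limma 3.58.1 in R 4.3.3 was fitted to all 9 arrays (lmFit, then eBayes, with 6 residual and 1.23 prior degrees of freedom), with two-sided tests and Benjamini-Hochberg adjustment over all genes tested at a threshold of 0.05. The fit was tested on simulated data. Errors of differences are moderated standard errors. Values on every array are given for members that passed in any comparison or whose group means differed by 1 log2 unit or more. Of the other pathway lists, genes that passed are named as examples, or the gene with the smallest p. Within-array differences of 2 members were compared with exact two-sided permutation tests. Alternatives changed the filter, row choice, scaling, spread model, array weights, groups fitted and arrays left out. Promoter sequence came from RefSeq assembly GRCm38.p6. The members, lists and rules were chosen with earlier results of these data known.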

Additional observations from a re-analysis of the deposited data

How the results depend on the processing

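Under every alternative in which they were tested, Fbp2 and Pkm in cold against control and Pgd in cold against knockout kept their direction. Fbp2 was not tested under the stricter filter. Counts of members past the threshold follow in the order knockout against control, then cold against control, then cold against knockout; as reported they were 0, 2 and 1. They were 20 (15 higher, 5 lower), 18 (17 higher, 1 lower) and 14 with array weights, which called 70.7%, 53.8% and 59.5% of all genes and whose estimate stopped before it reached its tolerance. With no filter on low values they were 0, 0 and 0 (6, 11 and 7 members at an unadjusted p under 0.05). With only the 2 groups compared they were 0, 13 and 0 (4, 15 and 4 unadjusted). Quantile normalization gave 0, 4 and 1. Without the in-between array of each group they were 0, 0 and 0 (0, 7 and 1 unadjusted). Leaving out 1 array at a time gave 0 to 9, 0 to 10 and 0 to 8: 9 without knockout replicate 1, 10 without knockout replicate 1 or 2, and 8 without knockout replicate 2. The stricter filter gave 0, 3 and 1, and the mean of all rows, median centring, limma-trend and robust eBayes gave 0, 2 and 1 each. Deviations from group means correlated at -0.46 to 0.09 for same-numbered arrays of different groups and at -0.23 to 0.47 for different-numbered ones. Same-numbered arrays were thus no more alike than different-numbered ones. The deviations within each group sum to 0, so these correlations depend on each other and do not settle whether replicate numbers pair the arrays. With the replicate block the counts were 0, 0 and 0 (5, 11 and 6 unadjusted). Median centring moved the median of all genes by at most 0.02. Member medians ranged over 0.05 to 0.32, 0.33 to 0.83 and 0.08 to 0.40 without array weights.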
